A study of Mus musculus with 16 samples.

Results

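The 10 genes described here, Slc1a2, Slc1a3, Glul, Aqp4, Kcnj10, Gja1, Gjb6, Aldh1l1, Aldoc and S100b, encode transporters, channels, gap junction proteins and enzymes that resting astrocytes are known for. They were taken from the table by gene name, from a list drawn up with earlier results of these data known, as 10 of the 54532 entries of the deposited count table, and all 10 passed the filter on low counts, with 769 to 68683 counts per gene and library. The 16 bulk RNA libraries came from the brains of female mice aged 9 months. They form 4 groups of 4 in which 2 Ch25h genotypes (+/+ and -/-) are each split into Tau- and Tau+ animals, and Ch25h+/+ Tau- is the group with neither change. Ch25h encodes the enzyme that makes 25-hydroxycholesterol from cholesterol, and -/- marks loss of both copies. Tau+ is taken to mean that a tau transgene is present. The labels give no name, promoter or mutation for the transgene, and no strain or litter. They name the frontal cortex as tissue, while the series' design text speaks of hippocampus.

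Astrocytes clear glutamate from the synapse with the sodium-driven carriers Slc1a2 (GLT-1) and Slc1a3 (GLAST), and glutamine synthetase (Glul) turns it into glutamine that neurons take back. The channel Kcnj10 (Kir4.1) carries potassium away from active neurons, and the water channel Aqp4 lies in the endfeet around blood vessels. The connexins Gja1 (connexin 43) and Gjb6 (connexin 30) join astrocytes into a network through gap junctions. Aldh1l1, an enzyme of folate metabolism, Aldoc, the brain form of the glycolytic enzyme aldolase, and S100b, a calcium-binding protein, are widely used astrocyte markers. Glul, Kcnj10 and S100b are also found in cells of the oligodendrocyte lineage. In reactive astrocytes Gfap and Vim, both intermediate filaments, increase.

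The promoters below are shown for the 3 gene pairs that varied most closely together within groups (Slc1a3 with Gja1, Slc1a2 with Slc1a3, and Gjb6 with Aldoc) and for S100b, whose promoter held the most copies of the motif searched. They are the bases before the RefSeq start (GRCm38.p6), 5′ to 3′ on the gene's strand, at chr2:102706188-102706355 (+ strand) for Slc1a2, chr15:8710808-8711057 (-) for Slc1a3, chr10:56377050-56377299 (+) for Gja1, chr14:57133612-57133861 (-) for Gjb6, chr11:78322823-78322967 (+) for the first of 2 starts of Aldoc, and chr10:76253586-76253835 (+) for S100b. The Slc1a2 and Aldoc stretches stop short where an annotated exon of the same gene begins. The Slc1a2 stretch lies inside the annotated span of the gene (102658659 to 102790784), so it precedes an internal start and not the 5′ end of that span. Capitals mark the core of the NFI motif, TTGGC, or GCCAA where it lies on the other strand.
Slc1a2: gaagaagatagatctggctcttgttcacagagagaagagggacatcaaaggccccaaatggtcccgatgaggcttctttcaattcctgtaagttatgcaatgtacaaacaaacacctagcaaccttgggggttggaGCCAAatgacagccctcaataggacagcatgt
Slc1a3: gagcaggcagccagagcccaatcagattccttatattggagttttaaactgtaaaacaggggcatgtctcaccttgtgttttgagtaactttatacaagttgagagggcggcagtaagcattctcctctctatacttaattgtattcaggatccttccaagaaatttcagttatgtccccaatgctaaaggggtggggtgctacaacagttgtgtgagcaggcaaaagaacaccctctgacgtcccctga
Gja1: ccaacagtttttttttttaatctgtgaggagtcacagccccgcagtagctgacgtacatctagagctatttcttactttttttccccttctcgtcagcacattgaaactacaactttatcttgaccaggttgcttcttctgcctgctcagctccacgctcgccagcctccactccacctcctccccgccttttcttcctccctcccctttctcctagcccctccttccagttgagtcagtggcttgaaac
Gjb6: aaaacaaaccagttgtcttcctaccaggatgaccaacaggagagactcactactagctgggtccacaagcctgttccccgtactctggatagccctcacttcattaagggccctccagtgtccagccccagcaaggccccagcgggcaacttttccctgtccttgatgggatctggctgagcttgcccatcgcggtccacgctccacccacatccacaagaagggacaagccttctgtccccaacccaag
Aldoc: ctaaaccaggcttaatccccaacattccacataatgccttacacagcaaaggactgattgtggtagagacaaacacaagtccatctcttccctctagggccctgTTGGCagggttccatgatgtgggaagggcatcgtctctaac
S100b: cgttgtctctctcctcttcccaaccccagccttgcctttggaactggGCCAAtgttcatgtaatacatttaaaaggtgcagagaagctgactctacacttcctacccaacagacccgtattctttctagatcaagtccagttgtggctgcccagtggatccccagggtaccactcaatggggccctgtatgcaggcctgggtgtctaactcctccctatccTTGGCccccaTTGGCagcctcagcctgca
NFI proteins are transcription factors of the astrocyte lineage. The RefSeq table held 9 of the 10 genes, in 10 windows. TTGGC on either strand stood in 5 of these 10 windows and in 41.5% of all 32851 promoter windows of 250 bases. It can overlap the CCAAT box (GCCAAT). Of these stretches S100b held 3 copies, Slc1a2 and Aldoc 1 each, and Slc1a3, Gja1 and Gjb6 held none. The SOX core ACAAAG, searched on both strands, stood in 0 of the 10 windows against 16.5% of all, and the STAT motif TTCNNNGAA in 2 of 10 against 7.02%.

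Totals were 15530352 to 25602500 counts per library. Ch25h had 5 to 30 counts in the 8 Ch25h+/+ libraries and 0 in the 8 Ch25h-/- libraries, and Prnp, whose promoter drives some tau transgenes, had 708 to 839 CPM (counts scaled to library size) in Tau- and 1414 to 1935 CPM in Tau+ libraries. The cortex markers summed to 472 to 660 CPM and the hippocampus markers to 47.1 to 176 CPM. A ribosomal RNA transcript, CT010467.1, took 2289 to 5684 CPM of the total in 7 of the 8 Ch25h-/- libraries and 111 to 475 CPM in the other 9. Those 9 held all 8 Ch25h+/+ libraries and Ch25h-/- Tau+ replicate 1. GC content was set against each gene's log2 CPM in a library, taken as its deviation from the gene's mean over all libraries. The Spearman correlation across 17598 genes was -0.4 to -0.263 in the 7 rRNA-rich libraries, against 0.0868 to 0.374 in the other 9. These values are relative, so they show that the classes differ and not which of them carries a GC trend. Since no Ch25h+/+ library was rRNA-rich, Ch25h loss and this library class cannot be told apart, apart from the 1 rRNA-poor Ch25h-/- library. Only Ch25h-/- Tau+ holds both classes, so a covariate for class rests on its replicate 1 against its rRNA-rich libraries. With it, Ch25h loss in Tau+ in effect sets that 1 library against Ch25h+/+ Tau+. The value in Tau- takes over the class difference from that group. Values and lost calls for Ch25h loss under this covariate therefore depend on 1 library.

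By mean CPM the 10 genes stood between percentile 77.1 (Gjb6) and 99.9 (Slc1a2) of the genes tested. On the RPKM scale, which divides CPM by exon length in kilobases and so allows a comparison between genes, the level over the 16 libraries was highest for Glul at 429 ± 44.4 (SD, n = 16), followed by Aldoc at 236 ± 27.9 and Slc1a2 at 193 ± 32.2. Slc1a3 (57.4 ± 6.32), S100b (57.2 ± 6.24) and Kcnj10 (38.8 ± 8.17) lay in the middle. Gjb6 (22.1 ± 3.51), Aqp4 (15.7 ± 3.12), Gja1 (15.4 ± 1.74) and Aldh1l1 (15.3 ± 1.62) were lowest. Glul lay above Aldoc in 16 of 16 libraries, Aldoc above Slc1a2 in 14, and Kcnj10 above Gjb6 in 15. Slc1a3 lay above S100b in only 9 of 16 libraries, as did Aqp4 above Gja1 and Gja1 above Aldh1l1, so these neighbours did not differ beyond their spread. The order depends on the length used: per kilobase of the longest transcript Gja1 stood at 40.5 and Slc1a3 at 110.

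The genes varied by different amounts. Between the lowest and the highest library the CPM value differed 2.18-fold for Aqp4, 2.07-fold for Kcnj10 and 2-fold for Slc1a2, but only 1.38-fold for Glul and 1.43-fold for Slc1a3. Within groups the SD on the log2 scale was 0.334 for Kcnj10, 0.253 for Aqp4 and 0.252 for Slc1a2, and smallest for Aldoc (0.0972) and Aldh1l1 (0.109). Counting error is at most 3.61% of a value (Gjb6 at 769 counts), and covers counting alone. Ch25h+/+ Tau+ replicate 1 was the lowest of all 16 libraries for Slc1a2, Slc1a3 and Kcnj10, and Ch25h+/+ Tau+ replicate 4 the highest for Gja1, Gjb6, Aldoc and S100b.

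Of the 10 genes, 1 passed the threshold in any of the comparisons: Aldoc, which was 20.3% lower with Ch25h loss in Tau+ mice. The threshold was an adjusted p of 0.05 (edgeR quasi-likelihood test, Benjamini-Hochberg over 17736 genes). The tau effect in Ch25h+/+ passed in 0 of the 10 genes, against 1.56% of all genes (1.47% higher and 0.0902% lower). At an unadjusted p under 0.05 there were 3 (9.38% of all genes). DESeq2 (424 of all 17736 genes) and limma-voom (498) each called 2, Aqp4 and Aldoc. All 10 had a value above 0, with a median log2 fold change of 0.19 and a range of 0.07 to 0.52, while the median of all genes was -0.01 and 47.8% of all genes were above 0. The median of the 10 was 0.28 without Ch25h+/+ Tau+ replicate 1 and 0.12 without replicate 4, and 9 of 10 were above 0 without replicate 3. No gene of the 10 had groups without overlap, against 5.86% of all genes. Bulk RNA cannot tell fewer cells of a type from less RNA per cell, so the direction of a value says nothing on the number of astrocytes. Since the labels do not say that the libraries come from separate animals, p-values measure the spread between these libraries, which may be technical.

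The tau effect in Ch25h-/- also passed in 0 of the 10, against 0.0395% of all genes. No gene of the 10 had an unadjusted p under 0.05 (3.68% of all genes), and DESeq2 and limma-voom called none. Here 5 genes lay above and 5 below 0, the median was -0.002 and the range -0.20 to 0.06, and groups without overlap occurred in none of the 10 against 2.14% of all genes. Omitting Ch25h-/- Tau+ replicate 4 moved the median to -0.04 with 3 of 10 above 0. Omitting Ch25h-/- Tau- replicate 1 moved it to 0.02 with 7 of 10 above 0. For Ch25h loss in Tau+, 1 of 10 passed, lower, against 3.55% of all genes (1.14% higher and 2.4% lower). At an unadjusted p under 0.05 there were 4 (23.9% of all genes). DESeq2 (1494 of all 17736 genes) called 2, Aldh1l1 and Aldoc, and limma-voom (1883 of all genes) 4, Glul, Gja1, Aldh1l1 and Aldoc. The median was -0.14, with 9 of 10 below 0. It was -0.25 with all 10 below 0 without Ch25h+/+ Tau+ replicate 1, and -0.10 with 6 of 10 below 0 without replicate 4. With rRNA class as a covariate it was -0.184 and with GC-corrected offsets -0.177, each with all 10 below 0. In 3 genes, Gjb6, Aldh1l1 and Aldoc, all Ch25h-/- libraries lay below all Ch25h+/+ libraries, against 10.2% of all genes in either direction. Ch25h loss in Tau- passed in 0 of 10, against 1.03% of all genes (0.214% higher and 0.812% lower), with 7 genes above 0, a median of 0.08 and a range of -0.17 to 0.35. Omitting 1 library moved this median to 0.03 with 5 of 10 above 0 (Ch25h-/- Tau- replicate 1 omitted), to 0.04 (Ch25h+/+ Tau- replicate 3 omitted) or to 0.16 (Ch25h+/+ Tau- replicate 4 omitted). It was 0.04 with rRNA class as a covariate and 0.05 with GC-corrected offsets, each with 6 of 10 above 0. There were 2 at an unadjusted p under 0.05 (20.9% of all genes), and DESeq2 and limma-voom called none, against 1124 and 1388 of all 17736 genes. Only Slc1a2 was free of overlap there, against 16.2% of all genes. For the interaction, the tau effect in Ch25h-/- minus that in Ch25h+/+, 0 of 10 passed against 0.0338% of all genes. All 10 values were below 0, with a median of -0.24 and a range of -0.46 to -0.06, while 53.7% of all genes were above 0 (median 0.02). Omitting 1 Ch25h+/+ Tau+ library moved the median of the 10 to -0.33 (replicate 1) or -0.16 (replicate 4). Without replicate 3 it was -0.18 with 1 of 10 above 0. At an unadjusted p under 0.05 there were 3 (4.13% of all genes), and DESeq2 and limma-voom called none. The comparisons share groups, so these counts are not independent of each other.

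**Figure D1:**
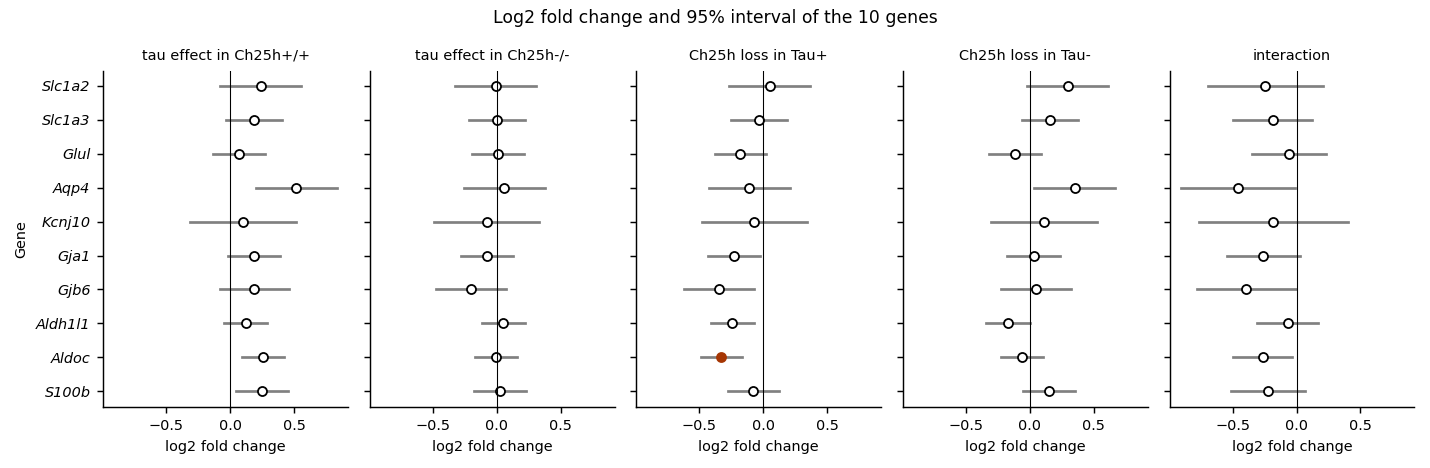
Log2 fold change of each of the 10 genes with its 95% interval (grey line) in the 4 comparisons and the interaction, from 4 libraries per group. The filled point is Aldoc with Ch25h loss in Tau+ (-0.33), the only value past an adjusted p of 0.05, and open points are those that did not pass.

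The 95% intervals of the fit without a term for library class were as follows. A change of 1.5-fold in either direction lay outside the interval for 9 of the 10 genes for tau in Ch25h+/+, 10 for tau in Ch25h-/-, 9 for Ch25h loss in Tau+ and 8 for Ch25h loss in Tau-. For the interaction this held for 6 of 10. With rRNA class as a covariate the standard errors of Ch25h loss in Tau+ were larger, at 0.32 for Kcnj10 (log2 fold change -0.36), 0.21 for Gjb6 (-0.40) and 0.24 for Aqp4 (-0.26), so the intervals above do not cover that uncertainty.

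Of the glutamate handling genes, none passed in any comparison of the edgeR test. Slc1a2, the main glutamate carrier of the forebrain (chromosome 2, 102658659 to 102790784, GRCm38), stood at 2173, 2377, 2058 and 2154 CPM in Ch25h+/+ Tau- and at 1595, 2842, 3193 and 2708 CPM in Ch25h+/+ Tau+. It stood at 2898, 2440, 2972 and 2438 CPM in Ch25h-/- Tau- and at 2461, 2614, 2487 and 3129 CPM in Ch25h-/- Tau+. Of the Ch25h+/+ Tau+ libraries, 3 lay above and 1 below every Tau- library of that genotype, and all 4 Ch25h-/- Tau- libraries lay above the 4 of Ch25h+/+ Tau-. The log2 fold change was 0.24 (standard error 0.15) for tau in Ch25h+/+ and -0.01 for tau in Ch25h-/-. Ch25h loss gave 0.29 (standard error 0.15, adjusted p 0.276) in Tau- and 0.05 in Tau+. Without Ch25h+/+ Tau+ replicate 1 the tau effect in Ch25h+/+ was 0.42 with an adjusted p of 0.0393, and without replicate 3 it was 0.12 with an adjusted p of 0.886. Of the 16 runs that each omitted a library, 1 passed.

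Slc1a3, the carrier that also marks Bergmann and radial glia (chromosome 15), had 449, 429, 464 and 454 CPM in Ch25h+/+ Tau-, and 400, 513, 569 and 564 CPM in Ch25h+/+ Tau+. In Ch25h-/- it had 570, 421, 521 and 485 CPM in Tau- and 477, 497, 479 and 548 CPM in Tau+. The Ch25h+/+ Tau- libraries were tightly grouped, and the other groups spread around and above them. Its tau effect in Ch25h+/+ was 0.19 (standard error 0.10, adjusted p 0.654), or 0.30 (adjusted p 0.118) without Ch25h+/+ Tau+ replicate 1, and the other 3 comparisons gave -0.03 to 0.15.

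Glul (chromosome 1) stood at 1329, 1552, 1387 and 1593 CPM in Ch25h+/+ Tau- and at 1292, 1455, 1721 and 1677 CPM in Ch25h+/+ Tau+. The Ch25h-/- libraries had 1413, 1299, 1279 and 1407 CPM in Tau- and 1481, 1259, 1244 and 1444 CPM in Tau+. Its groups overlapped in every comparison, and the log2 fold change of Ch25h loss in Tau+ was -0.18 (adjusted p 0.268). Limma-voom called Glul there (-0.27, adjusted p 0.043). Over the 16 libraries Glul varied with the summed oligodendrocyte markers at a Pearson correlation of 0.706, or 0.636 within groups, and with those of endothelium at 0.715, or 0.633 within groups. The oligodendrocyte markers summed to 2605 to 3587 CPM in Ch25h+/+ Tau- and 2686 to 4924 CPM in Ch25h+/+ Tau+. In Ch25h-/- they summed to 2049 to 3257 CPM in Tau- and 2527 to 3802 CPM in Tau+. The part of either cell type in the Glul values was not tested. Exons of other genes overlap Glul (Teddm2 by 116 bases, Mir8114 by 93) and Slc1a2 (Gm13872 by 189), so reads there may be shared.

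**Figure D2:**
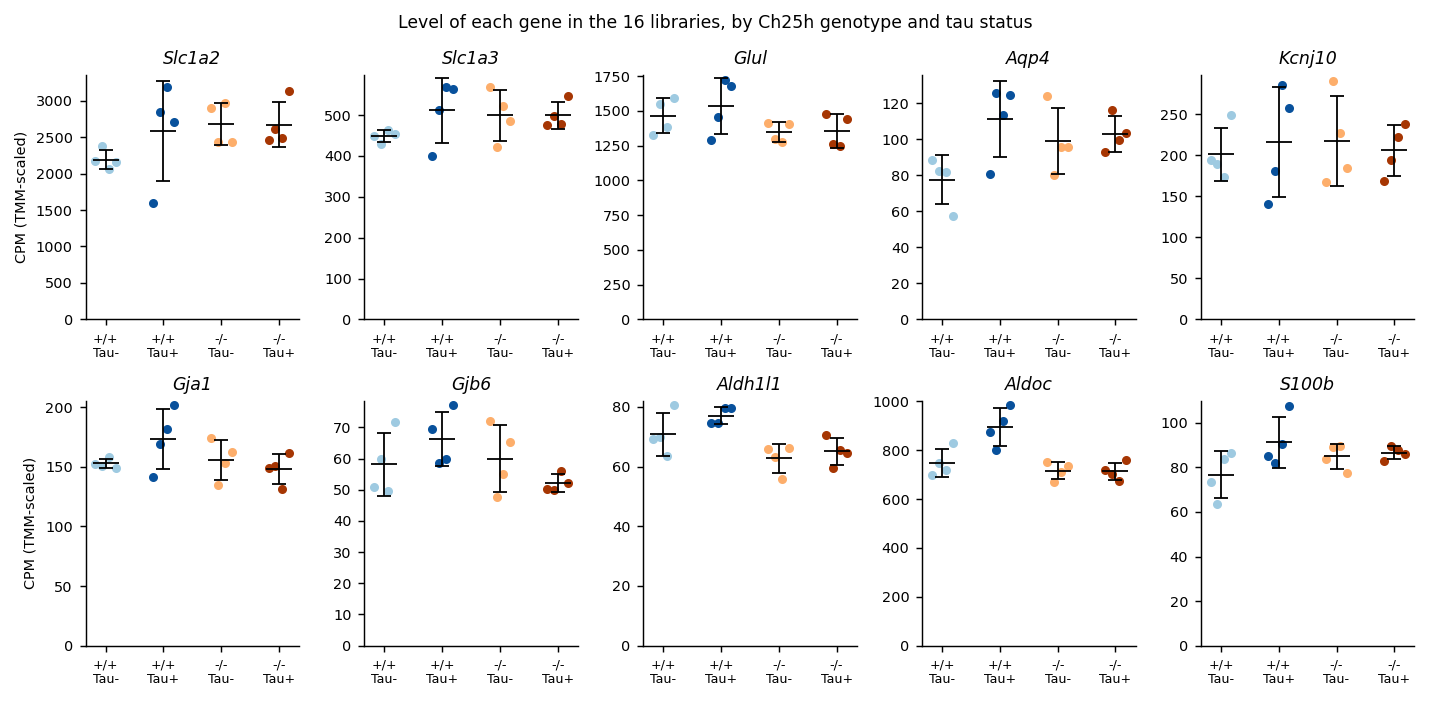
CPM of each of the 10 genes in the 16 libraries (points), by group, with the mean and SD of 4 libraries (bars). Axes start at 0 and differ between genes. Aldoc and Gjb6 in Ch25h-/- Tau+ lie below all Ch25h+/+ Tau+ libraries, and 1 Ch25h+/+ Tau+ library is lowest for Slc1a2, Slc1a3 and Kcnj10.

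Aqp4, the endfoot water channel (chromosome 18), had the largest value of the 10 genes for tau in Ch25h+/+, and it did not pass. Its libraries stood at 88.3, 82.5, 81.7 and 57.6 CPM in Ch25h+/+ Tau- and at 80.4, 126, 113 and 125 CPM in Ch25h+/+ Tau+. Tau+ was thus higher in 3 of 4 libraries, and replicate 1 lay among the Tau- libraries. In Ch25h-/- it had 124, 79.9, 95.3 and 95.8 CPM in Tau- and 92.6, 116, 99.6 and 104 CPM in Tau+, which overlapped throughout. The tau effect was 0.52 (standard error 0.15, 95% interval 0.20 to 0.83, adjusted p 0.122) in Ch25h+/+ and 0.06 in Ch25h-/-. The difference of the 2 tau effects was -0.46 (standard error 0.21, adjusted p 1). Ch25h loss gave 0.35 (adjusted p 0.197) in Tau-, or 0.22 without Ch25h-/- Tau- replicate 1, and -0.11 in Tau+, or -0.24 without Ch25h+/+ Tau+ replicate 1. Without Ch25h+/+ Tau+ replicate 1 the tau effect in Ch25h+/+ was 0.65 with an adjusted p of 0.0161, and without Ch25h+/+ Tau- replicate 4 it was 0.40 with an adjusted p of 0.373. Of the 16 runs that each omitted a library, 1 passed. It also passed in 3 of the 9 alternative analyses, which were no count filter, DESeq2 and limma-voom.

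Kcnj10, the potassium channel (chromosome 1), was the most variable gene within groups. It stood at 194, 189, 174 and 248 CPM in Ch25h+/+ Tau- and at 140.2, 181, 285 and 257 CPM in Ch25h+/+ Tau+. The Ch25h-/- libraries had 167, 291, 227 and 184 CPM in Tau- and 169, 194, 222 and 238 CPM in Tau+. All 4 groups overlapped, their means lay between 201 and 217 CPM, and its log2 fold changes ran from -0.08 to 0.11 in the 4 comparisons. The tau effect in Ch25h+/+, 0.10, had a 95% interval of -0.31 to 0.52, the widest of the 10 genes there.

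The connexins did not pass in the edgeR test. Gja1 (chromosome 10) had 153, 151, 158 and 149 CPM in Ch25h+/+ Tau- and 142, 169, 182 and 202 CPM in Ch25h+/+ Tau+. It had 174, 134, 153 and 162 CPM in Ch25h-/- Tau- and 149, 151, 131 and 161 CPM in Ch25h-/- Tau+. The Ch25h+/+ Tau+ group held the highest 2 of the 16 values and its own lowest library lay below all Ch25h+/+ Tau- libraries. The log2 fold change was 0.18 (standard error 0.10, adjusted p 0.609) for tau in Ch25h+/+ and -0.23 (standard error 0.10, adjusted p 0.159) for Ch25h loss in Tau+, where limma-voom called it (-0.31, adjusted p 0.033). Its tau effect in Ch25h+/+ was 0.28 without Ch25h+/+ Tau+ replicate 1 and 0.11 without replicate 4. Gja1 varied with the summed microglia markers at a Pearson correlation of 0.747 over the 16 libraries and 0.842 within groups.

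Gjb6 (chromosome 14) stood at 51.0, 59.9, 49.7 and 71.8 CPM in Ch25h+/+ Tau- and at 69.4, 58.6, 60.01 and 77.0 CPM in Ch25h+/+ Tau+. In Ch25h-/- it stood at 71.9, 47.6, 55.0 and 65.2 CPM in Tau- and at 50.1, 49.97, 56.1 and 52.0 CPM in Tau+. The last group was low and tight, below every Ch25h+/+ Tau+ library and inside the range of both Tau- groups. Ch25h loss in Tau+ gave -0.35 (standard error 0.13, 95% interval -0.62 to -0.07, adjusted p 0.12), and tau gave 0.19 in Ch25h+/+ and -0.20 in Ch25h-/-. Omitting 1 library moved the tau effect to between 0.11 (Ch25h+/+ Tau+ replicate 4) and 0.31 (Ch25h+/+ Tau- replicate 4) in Ch25h+/+. In Ch25h-/- it moved to between -0.30 (Ch25h-/- Tau- replicate 2) and -0.11 (Ch25h-/- Tau- replicate 1). The difference of the tau effects was -0.39 (standard error 0.18, adjusted p 1).

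Aldoc (chromosome 11, 78322968 to 78327781, GRCm38), the aldolase of astrocytes and Purkinje cells, was the only member to pass in the edgeR test. The Ch25h+/+ Tau+ libraries had 876, 800.3, 921 and 987 CPM and the Ch25h-/- Tau+ libraries 719, 702, 674 and 759 CPM. The Tau- libraries had 700.2, 746, 720.4 and 828 CPM in Ch25h+/+ and 753, 669.9, 710.2 and 735 CPM in Ch25h-/-. The Ch25h+/+ Tau+ group thus stood above the other groups, apart from an overlap with 1 Ch25h+/+ Tau- library. Aldoc fell with Ch25h loss in Tau+ from 896 ± 78.3 to 714 ± 35.3 CPM (SD, n = 4), a log2 fold change of -0.33 (standard error 0.08, 95% interval -0.49 to -0.16) with an adjusted p of 0.0315. Tau gave 0.26 (standard error 0.08, adjusted p 0.14) in Ch25h+/+ and -0.01 in Ch25h-/-, and the difference of these effects was -0.27 (standard error 0.11, adjusted p 1). Ch25h loss in Tau- gave -0.06.

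The Aldoc call was lost with the covariate for rRNA class (log2 fold change -0.32, adjusted p 0.976), with offsets that remove the GC trend (-0.29, 0.0694) and when the 8 libraries of the comparison were fitted alone (-0.33, 0.116). Leaving out 1 library at a time gave log2 fold changes of -0.40 to -0.29 and adjusted p of 0.0129 to 0.108, and the call was lost in 4 of these 16 runs. The libraries left out there were Ch25h+/+ Tau+ replicate 4 and Ch25h-/- Tau+ replicates 2, 3 and 4. The 1 rRNA-poor Ch25h-/- Tau+ library, replicate 1, had 719 CPM, within the 674 to 759 CPM of the 3 rRNA-rich ones and below all 4 Ch25h+/+ Tau+ libraries.

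Aldh1l1 (chromosome 6) stood at 69.1, 69.7, 63.4 and 80.8 CPM in Ch25h+/+ Tau- and at 74.5, 74.5, 79.5 and 79.6 CPM in Ch25h+/+ Tau+. It stood at 65.8, 63.2, 55.8 and 66.4 CPM in Ch25h-/- Tau- and at 70.7, 59.6, 65.5 and 64.4 CPM in Ch25h-/- Tau+. All Ch25h-/- Tau+ libraries lay below all Ch25h+/+ Tau+ libraries, at a log2 fold change of -0.24 (standard error 0.08, 95% interval -0.41 to -0.07, adjusted p 0.0887), and Ch25h loss in Tau- gave -0.17 (adjusted p 0.233). Without Ch25h-/- Tau+ replicate 1, the highest of its group, the value in Tau+ was -0.30 with an adjusted p of 0.0394. With rRNA class as a covariate it was -0.12 in Tau+ and -0.01 in Tau-, and with GC-corrected offsets -0.15 and -0.06, and none of these passed. The class covariate rests on that replicate 1 against the rest of its group. Over the 16 libraries Aldh1l1 ran against the rRNA transcript at a Pearson correlation of -0.657, and -0.219 within groups. An exon of the opposite-strand gene Gm15756 overlaps it by 499 bases, and the use of strand in counting is not given in the sources used here.

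S100b (chromosome 10) had 73.3, 63.5, 83.7 and 86.5 CPM in Ch25h+/+ Tau- and 85.1, 82.1, 90.3 and 108 CPM in Ch25h+/+ Tau+. It had 83.9, 89.0, 89.8 and 77.5 CPM in Ch25h-/- Tau- and 82.7, 89.5, 88.0 and 86.1 CPM in Ch25h-/- Tau+. The Ch25h+/+ Tau+ libraries at 90.3 and 108 CPM lay above all libraries of the other groups, and the groups overlapped. Tau gave 0.25 (standard error 0.10, adjusted p 0.349) in Ch25h+/+ and 0.03 in Ch25h-/-. Without Ch25h+/+ Tau+ replicate 4, the library at 108 CPM, the value in Ch25h+/+ was 0.16.

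GC content differs among the genes, from 41.4% in Aqp4 and 42.2% in Gja1 to 51.9% in Aldoc and 54.4% in Aldh1l1 (longest transcript). Across the 10 genes its Spearman correlation with the log2 fold change of Ch25h loss was -0.467 in Tau+ and -0.709 in Tau-, and across all genes -0.47 and -0.537. For tau it was -0.345 in Ch25h+/+ and -0.127 in Ch25h-/- across the 10, and 0.0451 and 0.114 across all genes. The library classes differ in their relation to GC content, so class and GC were both set against the values. With GC-corrected offsets Ch25h loss in Tau+ gave -0.38 for Gja1 and -0.27 for Aqp4. With rRNA class as a covariate, Ch25h loss in Tau- gave 0.14 for Slc1a2, 0.15 for Aqp4 and -0.01 for Aldh1l1. In Tau+ it gave -0.05 for Glul, -0.12 for Aldh1l1, -0.26 for Aqp4 and -0.36 for Kcnj10. None of these passed.

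Within groups the genes tended to vary together. Over deviations of log2 CPM from the group means in 16 libraries, 38 of the 45 pairs had a Pearson correlation above 0, with a median of 0.303, and 4 pairs exceeded 0.7. These were Slc1a3 with Gja1 (0.891), Slc1a2 with Slc1a3 (0.837), Gjb6 with Aldoc (0.728) and Glul with Aldoc (0.72). Gja1 and Glul had the highest median correlation with the other members (0.579 and 0.585), and Aqp4 (-0.05), S100b (0.136) and Aldh1l1 (0.139) the lowest. Aqp4 was split, at 0.693 with Gja1, 0.69 with Slc1a3 and 0.616 with Slc1a2 but at 0.14 or below with the others. The lowest value was -0.292, for Aqp4 with Aldh1l1. The points share library and normalization, so these correlations describe the libraries and carry no test. Slc1a2 (0.839 over the 16 libraries and 0.808 within groups), Slc1a3 (0.837 and 0.806), Aqp4 (0.803 and 0.757) and Gja1 (0.534 and 0.712) also varied with the summed markers of oligodendrocyte precursors. Slc1a2 varied with those of thalamus at 0.843 and 0.802 and with those of hippocampus at 0.684 and 0.668. The thalamus markers summed to 86.7 to 135 CPM. Their part in the Slc1a2 values was not tested.

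**Figure D3:**
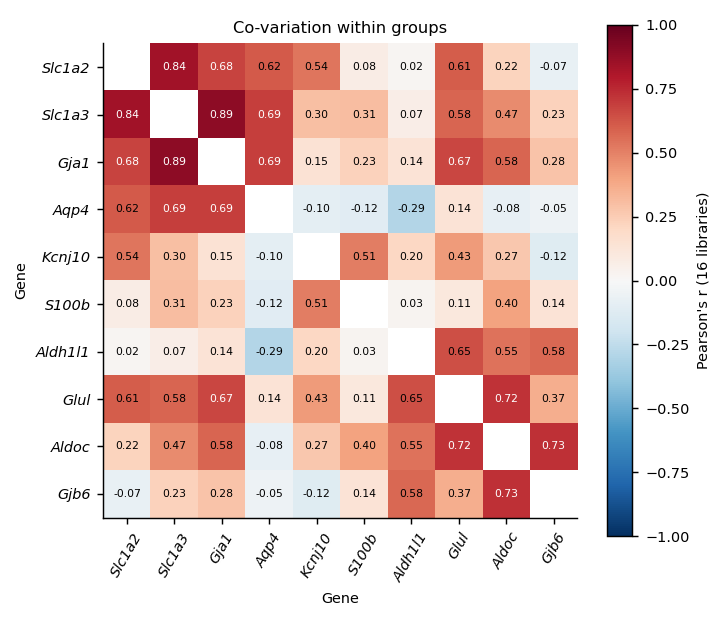
Pearson correlation of each pair of the 10 genes over 16 libraries, after the group mean was taken from log2 CPM. Red is positive and blue negative. Slc1a2, Slc1a3 and Gja1 form a block of 0.68 to 0.89, with which Aqp4 correlates at 0.62 to 0.69.

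The mean of log2(CPM + 0.5) over the 10 genes was 7.94 ± 0.0581 in Ch25h+/+ Tau-, 8.141 ± 0.197 in Ch25h+/+ Tau+, 8.015 ± 0.072 in Ch25h-/- Tau- and 7.999 ± 0.0608 in Ch25h-/- Tau+ (SD, n = 4). Over 16 libraries the genes whose pattern was most like this mean, of 14471 ranked, were Epb41l2 (Pearson 0.911, Spearman 0.891), Slc41a1 (0.91, 0.756) and Abca1 (0.905, 0.785). Fyb, Zcchc24, Itpripl2, Ahnak, Tfcp2l1, Selenop and Wipf1 followed, down to a Pearson correlation of 0.857. Within groups the order was led by Slc41a1 (0.945), Epb41l2 (0.934), Zcchc24 (0.926), Eps8 (0.925) and C3ar1 (0.915). Fyb, Aff1, Zfp169, Fam107a and Itpr2 followed, down to 0.876. These are the highest of many correlations and none is tested.

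Other astrocyte genes of 6 lists (72 genes, all tested) are given beside the 10. For tau in Ch25h+/+, 61 of 72 were above 0 with a median of 0.13, and 2 rose past the threshold (1.47% of all genes). These were Slc16a1, which carries lactate (36.0 ± 1.23 to 52.4 ± 4.82 CPM; log2 fold change 0.54, adjusted p 0.00179), and Clu, a secreted chaperone (784 ± 56.4 to 1108 ± 148 CPM; 0.50, 0.00488). Both calls held in all 9 alternative analyses and whichever of the 16 libraries was left out. For tau in Ch25h-/-, 42 of 72 were above 0 with a median of 0.03 and none passed. For Ch25h loss in Tau-, 25 of 72 were above 0, the median was -0.05 (0.08 for the 10 genes) and none passed, and for the interaction 22 of 72 were above 0 with a median of -0.10 (-0.24 for the 10 genes) and none passed. At an unadjusted p under 0.05 these 3 held 2, 15 and 2 of the 72 genes, beside 3.68%, 20.9% and 4.13% of all genes. DESeq2 called 0, 6 and 1, beside 14, 1124 and 55 of all 17736 genes. Limma-voom called 0, 6 and 0, beside 6, 1388 and 6 of all genes. For tau in Ch25h+/+ 12 of the 72 had such a p (9.38% of all genes), with 3 called by DESeq2 and 5 by limma-voom (424 and 498 of all genes).

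With Ch25h loss in Tau+, 55 of these 72 genes were below 0, with a median of -0.14. At an unadjusted p under 0.05 there were 24 (23.9% of all genes). DESeq2 called 11 (1494 of all 17736 genes) and limma-voom 16 (1883 of all genes). In the edgeR test 7 fell past the threshold (2.4% of all genes), among them the following. Of the endfoot and dystrophin complex list, Gpr37l1, a receptor of astrocytes (log2 fold change -0.51, adjusted p 0.00342), and Mlc1, an astrocyte membrane protein (-0.54, 0.0138), fell. Of the other lists, Fxyd1, a regulator of the sodium pump (-0.69, 0.0199), Slc25a18, a mitochondrial glutamate carrier (-0.35, 0.0473), Slc16a1 (-0.46, 0.0107) and Clu (-0.44, 0.0161) fell. Each of these named genes lost the call with the covariate for rRNA class. The values there were -0.33 for Gpr37l1, -0.33 for Mlc1, -0.83 for Fxyd1, -0.44 for Slc25a18, -0.43 for Slc16a1 and -0.50 for Clu. With GC-corrected offsets Gpr37l1, Mlc1 and Slc16a1 kept it, and Fxyd1 (-0.53), Slc25a18 (-0.27) and Clu (-0.32) lost it. When the 8 libraries of the comparison were fitted alone, Gpr37l1 kept it and the other named genes lost it at values near those above (Mlc1 -0.53, Fxyd1 -0.68, Slc25a18 -0.34, Slc16a1 -0.45 and Clu -0.44). Whichever library was left out, Gpr37l1 and Slc16a1 kept the call, while Slc25a18 kept it in 7 of 16 such runs, Fxyd1 and Clu each in 13 and Mlc1 in 14.

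By list, tau in Ch25h+/+ gave medians of 0.12 (glutamate and amino acid transport, 8 of 10 above 0), 0.08 (endfoot and dystrophin complex, 9 of 10), 0.21 (ion transport, 7 of 10), 0.15 (connexins and junction partners, 8 of 10), 0.11 (metabolism, 10 of 12) and 0.10 (lineage factors and receptors, 19 of 20). For Ch25h loss in Tau+ the glutamate and amino acid transport list had 10 of 10 genes below 0 (median -0.16), and metabolism 11 of 12 (-0.17). Connexins and junction partners had 8 of 10 below 0 (-0.19), and lineage factors and receptors 15 of 20 (-0.11). Endfoot genes had 5 of 10 (-0.05) and ion transport genes 6 of 10 (-0.02).

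Of 22 paralogs tested, from a list of 23, 2 passed, both with Ch25h loss in Tau+: S100a16 (57.5 ± 9.17 to 41.5 ± 5.06 CPM, log2 fold change -0.47, adjusted p 0.0275) and S100a6 (16.8 ± 6.31 to 9.24 ± 0.397 CPM, -0.86, 0.0352). Both are calcium-binding proteins of the S100 family, and both lost the call under the rRNA class covariate, under GC-corrected offsets and with the 8 libraries fitted alone. Under the class covariate the values were -0.30 for S100a16 and -0.79 for S100a6. Of the 16 runs that each omitted a library, S100a16 kept the call in 12 and S100a6 in 11. The S100a6 values there ran from -1.035 to -0.586. Of all genes, 2.4% fell past the threshold with Ch25h loss in Tau+ in the edgeR fit. DESeq2 and limma-voom each called 4 paralogs there, beside 1494 and 1883 of all 17736 genes. For tau in Ch25h+/+ they called 2 and 3, beside 424 and 498 of all genes. There 7 paralogs had an unadjusted p under 0.05 (9.38% of all genes). S100b gave -0.08 with Ch25h loss in Tau+. The neuronal glutamate carrier Slc1a1 stood at 77.0 CPM in Ch25h+/+ Tau- and 68.6 CPM in Ch25h+/+ Tau+, and Aldoa, the general aldolase, at 1605 and 1678 CPM. Neither passed in any comparison of the edgeR fit.

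In the same libraries genes of reactive astrocytes gave larger values. Of 16 reactive genes tested, from a list of 17, 10 rose with tau in Ch25h+/+ (median of the list 1.18), against 1.47% of all genes. With Ch25h loss in Tau+ 7 fell (median -0.77), against 2.4% of all genes. None passed for tau in Ch25h-/- (median 0.19), for Ch25h loss in Tau- (0.09) or for the interaction (-1.04). At an unadjusted p under 0.05 these last 3 held 1, 1 and 9 of the reactive genes, beside 3.68%, 20.9% and 4.13% of all genes. DESeq2 called 0, 0 and 4 of the reactive genes, beside 14, 1124 and 55 of all 17736 genes. Limma-voom called 0, 0 and 1, beside 6, 1388 and 6 of all genes. Gfap stood at 122 to 161 CPM in Ch25h+/+ Tau- and at 473, 637, 627 and 1312 CPM in Ch25h+/+ Tau+, a log2 fold change of 2.46 (standard error 0.27, adjusted p 6.13e-05). In the latter libraries Aldoc had 876, 800.3, 921 and 987 CPM. Over all 16 libraries Aldoc varied with Gfap at a Pearson correlation of 0.803, and 0.31 within groups, and with the summed microglia markers at 0.831 and 0.472. Gfap fell with Ch25h loss in Tau+ (log2 fold change -1.96, adjusted p 0.000767), and the call was lost with the covariate for rRNA class, where the value was -2.01 (adjusted p 0.306). C4b (2.50), Serpina3n (2.27), Aspg (1.34) and Gbp2 (1.14) also rose with tau in Ch25h+/+, and C4b (-1.94), Serpina3n (-2.19), Gbp2 (-1.14) and Vim (-1.37) also fell with Ch25h loss in Tau+. These 4 calls were lost with the covariate for rRNA class as well, at values of -1.88, -2.38, -1.12 and -1.42, and that of Vim also with the 8 libraries fitted alone (-1.36) and without Ch25h-/- Tau+ replicate 3 (-1.34, adjusted p 0.0617). Without Ch25h+/+ Tau+ replicate 4 the Vim value was -0.82. The difference between the 2 lists was not tested.

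**Figure D4:**
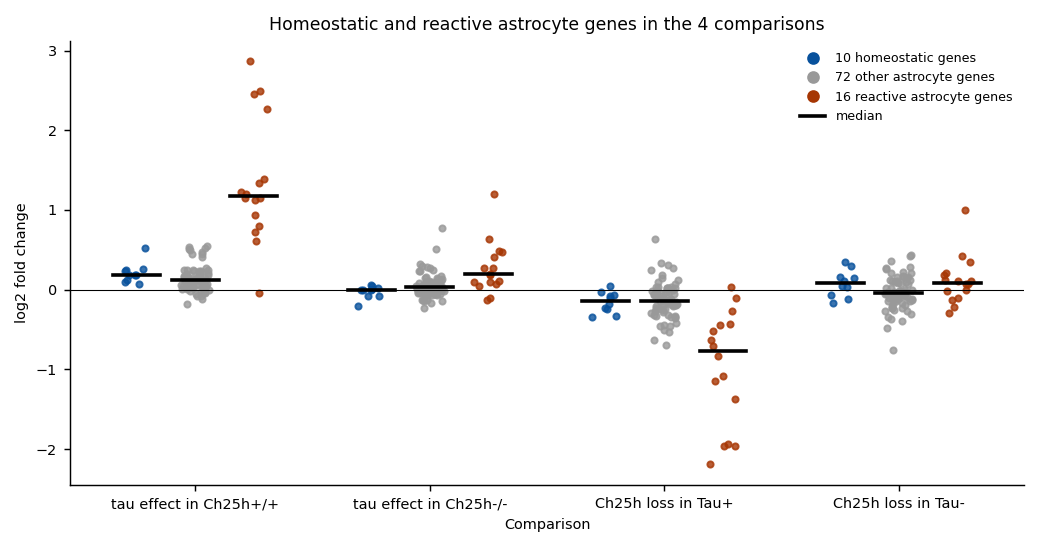
Log2 fold change of each gene (point) in the 4 comparisons, for the 10 homeostatic genes, the 72 other astrocyte genes and the 16 reactive genes, with the median of each list (bar). In Ch25h+/+ the medians for tau were 0.19, 0.13 and 1.18, and for Ch25h loss in Tau+ they were -0.14, -0.14 and -0.77.

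The microglia markers summed to 254 to 272 CPM in Ch25h+/+ Tau- and 324 to 419 CPM in Ch25h+/+ Tau+. In Ch25h-/- they summed to 254 to 284 CPM in Tau- and 253 to 308 CPM in Tau+. The pericyte markers summed to 98.3 to 132 CPM in Ch25h+/+ Tau- and 131 to 175 CPM in Ch25h+/+ Tau+, and to 102 to 125 CPM and 111 to 122 CPM in the Ch25h-/- groups. Aldoc varied with them at a Pearson correlation of 0.784 over the 16 libraries and 0.365 within groups. The choroid plexus markers ranged from 14.8 to 2727 CPM between libraries, and Aldoc varied with them at -0.015. The 10 genes themselves summed to 5240 to 5724 CPM and 4753 to 7213 CPM in the Ch25h+/+ groups, and to 5535 to 6321 CPM and 5547 to 6584 CPM in the Ch25h-/- groups. The share of other cell types in the changes of the 10 genes was not tested.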

How the data were processed

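Per the labels' protocols, a PureLink kit gave the total RNA and a SMARTER mRNA kit the libraries. STAR 2.7 and the builds GRCm38 and mm10 are named in the submitters' processing notes, while the counter, the annotation and the use of strand are not given in the sources used here. The authors deposited whole-number counts per gene and library, with no normalization per the file headers, in 54532 entries (105 repeated symbols). Groups follow the genotype labels, with replicates numbered in accession order. The 10 genes and all lists were chosen with earlier results of these data known. Named are the 10 genes, every gene of a list past the threshold (at most 5 per list and comparison, by smallest p), and the genes most like the mean of the 10 (by Pearson correlation of log2(CPM + 0.5) over 16 libraries, among genes whose log2 CPM averages 1 or more). 1 gene of a list that meets this rule is not reported here.

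The counts were filtered with filterByExpr to 17736 genes and tested in 1 fit of 16 libraries with TMM scaling and the two-sided quasi-likelihood test of edgeR 4.0.16 (R 4.3.3), with Benjamini-Hochberg adjustment over all genes tested at 0.05. CPM is on TMM-scaled library sizes, except for CT010467.1, which is on total counts. A library is called rRNA-rich above 1000 CPM of that transcript. RPKM is CPM divided by the union exon length in kilobases. Gene positions, lengths and GC content came by symbol from GENCODE M21 (GRCm38), with GC for 17598 of the tested genes (99.2%). Alternatives were DESeq2 1.42.0, relative log expression scaling, all genes with 1 count or more, only genes averaging 50 counts, limma-voom (3.58.1) with quality weights, only the 8 libraries compared, rRNA class as a covariate, GC-corrected offsets (loess, span 0.5), 1 surrogate variable (sva 3.50.0) and leaving out each library. The scripts were tested on simulated data. Counting error is the only error that the depth of 15530352 to 25602500 counts states.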

Additional observations from a re-analysis of the deposited data

Results flagged for a closer look

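Each of the 10 genes was checked in each of the 4 groups for a library far from the other 3 (Dixon's test at 95%), which made 40 checks. None stood apart, where chance alone gives about 1 in 20.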

How the results depend on the processing

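No paired analysis was possible because the labels give the libraries no number or litter that pairs them across groups. Of the 10 genes, the number past the threshold for tau in Ch25h+/+ was 0, against 1 with no filter, 2 with DESeq2 and 2 with limma-voom, and 0 to 2 when 1 library was left out, with 2 without Ch25h+/+ Tau+ replicate 1. For Ch25h loss in Tau+ it was 1, against 2 with DESeq2, 4 with limma-voom and 0 with only the 8 libraries compared, with rRNA class as a covariate and with GC-corrected offsets, and 0 to 2 when 1 library was left out. It was 0 in all alternatives for the other comparisons. Of the 1240 alternative values of single genes, 61 changed sign, over 18 of 50 results, and 0 of these were called. The cause of the sign changes was not tested. For tau in Ch25h-/- these were Slc1a3 (-0.002386 with relative log expression, -0.009207 with a mean of at least 50 counts, -0.002392 with DESeq2, -0.009133 with 8 libraries, -0.001391 with a surrogate variable), Glul (-0.002101 with a mean of at least 50 counts, -0.007532 with limma-voom, -0.002487 with 8 libraries, -0.03656 with rRNA class), Slc1a2 (0.0282 with limma-voom, 0.0299 with rRNA class), Aldoc (0.002994 with limma-voom) and Kcnj10 (0.005436 with rRNA class). For Ch25h loss in Tau+ it was Slc1a2 (-0.04213 with limma-voom, -0.07067 with rRNA class, -0.04091 with GC-corrected offsets), and for Ch25h loss in Tau- Glul (0.05187), Kcnj10 (-0.2596) and Gjb6 (-0.02764) with rRNA class and Gja1 (-0.1236) with GC-corrected offsets. Leaving out 1 library gave ranges across 0 for Kcnj10 in tau with Ch25h+/+ (-0.06103 to 0.2677) and, for tau in Ch25h-/-, for Slc1a2 (-0.09479 to 0.03853), Slc1a3 (-0.07647 to 0.06443), Aqp4 (-0.03403 to 0.1814), Glul (-0.04445 to 0.03983), Kcnj10 (-0.1936 to 0.08803), Aldh1l1 (-0.004999 to 0.08542), Aldoc (-0.04369 to 0.01125) and S100b (-0.02056 to 0.04744). For Ch25h loss in Tau+ they were Slc1a2 (-0.1309 to 0.1668), Slc1a3 (-0.1401 to 0.02326), Kcnj10 (-0.2361 to 0.09313) and S100b (-0.1444 to 0.003264), in Tau- Kcnj10 (-0.06512 to 0.2276), Gja1 (-0.02477 to 0.09031) and Gjb6 (-0.0518 to 0.1619), and for the interaction Glul (-0.1471 to 9.702e-06). Over all genes, Ch25h loss in Tau+ passed in 629, against 1494 with DESeq2, 1883 with limma-voom, 106 with 8 libraries, 10 with rRNA class and 205 with GC-corrected offsets, and 108 to 1691 when 1 library was left out. Tau in Ch25h+/+ passed in 277, against 424 with DESeq2, 498 with limma-voom and 160 without Ch25h+/+ Tau+ replicate 4. Ch25h loss in Tau- passed in 182, against 522 with no filter, 1124 with DESeq2, 1388 with limma-voom, 1229 with 8 libraries, 16 with GC-corrected offsets and 0 with rRNA class, and 3 to 1306 when 1 library was left out. Tau in Ch25h-/- passed in 7, against 28 with no filter, 14 with DESeq2 and 2 with a mean of at least 50 counts, and 6 to 13 when 1 library was left out (13 without Ch25h-/- Tau- replicate 4). The interaction passed in 6, against 57 with no filter, 55 with DESeq2, 3 with rRNA class, 11 with a surrogate variable and 0 to 22 when 1 library was left out.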
